A study of Mus musculus with 8 samples.

Results

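Oligodendrocyte lineage transcription factors are described here in the auditory nerve of mice that differ in Mef2c. The members were fixed by name as Olig1, Olig2, Nkx2-2, Nkx6-2, Myrf, Sox10, Sox8, Tcf7l2, Zfp536 and Zfp488. 9 of the 10 listed members were found among the 15035 genes of the deposited table, and Zfp488, a zinc finger protein that works with Olig2, was not analysed here. All 9 reached 10 normalized counts in 4 or more libraries, the minimum for testing. A normalized count is a gene's read count divided by a scaling factor of its library. Bulk RNA was sequenced from auditory nerves dissected out of the cochlea at postnatal day 21, with both nerves of a mouse joined into 1 library. 4 libraries came from wild-type mice (numbered 1 to 4) and 4 from mice labelled Mef2c heterozygote (numbered 5 to 8). The labels give no allele, strain or sex, so what the 2 groups share beyond age and tissue is not known from them.

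The label was checked on Mef2c itself, a transcription factor gene of the MADS-box family. Mef2c had 462.0 ± 50.4 normalized counts in wild type and 668.3 ± 66.8 in the heterozygote-labelled group (SD, n = 4 each), which goes against the loss of a copy. The values are per gene and the deleted part is not given, so they do not check the deletion itself. All directions below are between libraries as labelled.

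Oligodendrocytes make the myelin of the central nervous system, and Schwann cells make that of peripheral nerve. The auditory nerve carries both, with Schwann cells along its peripheral part and oligodendrocytes beyond a glial transition zone. Olig1 and Olig2 are basic helix-loop-helix factors that specify and mature the oligodendrocyte lineage, and Nkx2-2 and Nkx6-2 are homeodomain factors of differentiating and mature oligodendrocytes. Myrf is a membrane-bound factor, released by cleavage, that switches on central myelin genes. Sox10 and Sox8 are related HMG-box factors, and Sox10 is needed in Schwann cells as well as in oligodendrocytes. Tcf7l2 is an HMG-box effector of Wnt signalling that acts during oligodendrocyte differentiation, and Zfp536 is a zinc finger repressor.

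The genes lie apart in the genome except for Olig1 and Olig2. On GRCm38 (GENCODE M21), Olig2 spans positions 91225457 to 91228677 and Olig1 positions 91269772 to 91271933 of chromosome 16, both on the plus strand and 41.1 kb apart. Nkx2-2 is on chromosome 2 (147177546 to 147194243), Nkx6-2 on chromosome 7 (139579376 to 139582797) and Sox8 on chromosome 17 (25565892 to 25570686), all on the minus strand. Start regions are shown for the 3 factors that were lower in every heterozygote-labelled library and have an entry in the RefSeq table (GRCm38.p6), with Sox8 as a factor that was not lower. Olig1, Sox10 and Myrf have no entry. Each runs from 250 bases before to 50 bases after a start annotated by RefSeq. That start need not be the gene's outermost one in GENCODE, and the Nkx2-2 window lies inside the GENCODE span while the RefSeq start of Olig2 lies just inside its own. Capitals mark E-boxes (CANNTG on either strand), the kind of site that basic helix-loop-helix factors bind.
Olig2 (chr16:91225300-91225599, plus strand): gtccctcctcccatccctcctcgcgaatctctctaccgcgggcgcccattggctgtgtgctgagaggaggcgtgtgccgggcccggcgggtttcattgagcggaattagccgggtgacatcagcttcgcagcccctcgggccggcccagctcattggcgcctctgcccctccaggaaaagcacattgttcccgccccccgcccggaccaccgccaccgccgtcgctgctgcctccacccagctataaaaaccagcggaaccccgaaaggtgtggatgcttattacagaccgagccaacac
Nkx2-2 (chr2:147186353-147186652, minus strand): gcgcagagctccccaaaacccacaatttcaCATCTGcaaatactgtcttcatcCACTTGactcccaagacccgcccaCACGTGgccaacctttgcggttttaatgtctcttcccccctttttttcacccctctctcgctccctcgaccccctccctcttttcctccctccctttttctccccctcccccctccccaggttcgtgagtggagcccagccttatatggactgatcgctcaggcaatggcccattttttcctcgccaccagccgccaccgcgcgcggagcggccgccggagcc
Nkx6-2 (chr7:139582748-139583047, minus strand): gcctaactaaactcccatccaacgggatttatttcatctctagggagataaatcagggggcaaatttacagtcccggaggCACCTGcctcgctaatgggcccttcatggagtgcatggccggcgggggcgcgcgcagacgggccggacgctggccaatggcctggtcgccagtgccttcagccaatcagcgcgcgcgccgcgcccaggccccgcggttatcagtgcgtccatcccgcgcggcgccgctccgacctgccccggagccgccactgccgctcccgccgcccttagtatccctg
Sox8 (chr17:25570637-25570936, minus strand): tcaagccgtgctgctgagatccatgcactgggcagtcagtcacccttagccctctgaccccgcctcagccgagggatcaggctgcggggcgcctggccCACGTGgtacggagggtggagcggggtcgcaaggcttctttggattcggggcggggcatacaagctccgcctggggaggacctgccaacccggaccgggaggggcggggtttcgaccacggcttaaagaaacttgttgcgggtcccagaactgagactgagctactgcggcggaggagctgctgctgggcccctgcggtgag
The Nkx2-2 window held 3 E-boxes, those of Nkx6-2 and Sox8 held 1 each, and that of Olig2 held 0. Of the 32851 start regions in the table, 72.3% held at least 1, so the match is common. A simplified pattern for the MEF2 site (CTA, any 4 bases, TAG), searched on both strands, was in none of these 4 windows and in 3.69% of all start regions. Other forms of that site were not searched. These are matches of letters and not measured binding.

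The libraries were of similar depth and 1 stood apart. Estimated depth was 13363210 to 21507618 counted reads per library. Wild-type library 1 had the lowest median correlation with the others across genes (0.940 against 0.956 to 0.973), and it and heterozygote-labelled library 5 had almost no Xist (12 and 7.6 normalized counts against 5175 to 8615). Results below are therefore also given without these libraries where they change. All 14 markers of spiral ganglion neurons and all 16 of Schwann cell myelin were above 0 in every library. Their summed levels overlapped between the groups, at 214651 to 291614 normalized counts in wild type and 237591 to 284861 in the heterozygote-labelled group for neurons, and 160443 to 189660 and 160818 to 189168 for Schwann cells.

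The 9 factors did not move as 1 group. Olig1, Olig2, Nkx2-2 and Nkx6-2 lay lower in each of the 4 heterozygote-labelled libraries than in every wild-type one, at 40.4% to 47.8% of the wild-type mean. Myrf was at 65.3% with a slight overlap of the groups. Sox10, Sox8, Tcf7l2 and Zfp536 overlapped between the groups, at 91.2% to 122% of the wild-type mean. None of the 9 reached 0.05 after adjustment over all genes with limma-trend, a linear model of log2(value + 1) with a shared estimate of spread, while 5 had an unadjusted p under 0.05, all lower. Across the 14870 genes tested, 0.0807% passed after adjustment (0.074% lower and 0.00672% higher). At an unadjusted p under 0.05 the share was 14.1% (7.34% lower and 6.72% higher). Groups did not overlap in 3.86% of genes as lower and 3.4% as higher, and 47.7% of genes had a negative log2 fold change of any size. In the authors' deposited table the FDR was under 0.05 for 4 of the 9, the same 4 that did not overlap, where 0.938% of its 15024 genes with a p-value were lower at that FDR and 0.672% higher. The list had been proposed with earlier results of these data known, so these counts describe it.

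**Figure D1:**
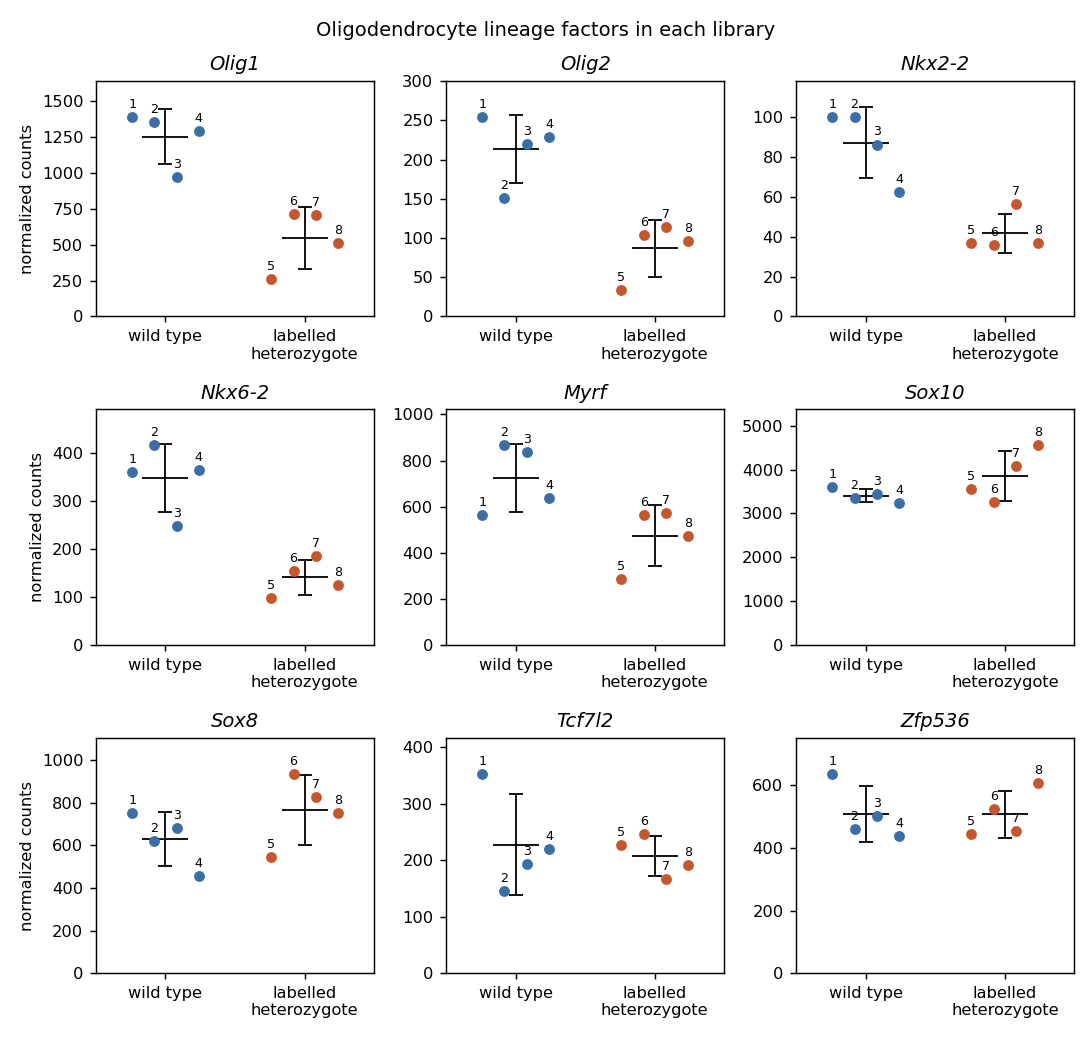
Normalized counts of the 9 factors in each library (points, numbered by replicate), with the group mean and SD (bars, n = 4). Olig1, Olig2, Nkx2-2 and Nkx6-2 do not overlap between the groups, Myrf overlaps by 1 library, and the other 4 overlap widely.

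The basic helix-loop-helix pair was examined first. Olig1 had 1388.6, 1354.0, 969.8 and 1293.6 normalized counts in wild-type libraries 1 to 4 and 257.4, 716.2, 708.7 and 511.0 in libraries 5 to 8. Library 5 was the lowest and even the highest heterozygote-labelled library lay below wild-type library 3. The log2 fold change of Olig1 was -1.28 ± 0.28 (SE, 95% interval -1.88 to -0.68), and the limma-trend p was 0.000558 before and 0.154 after Benjamini-Hochberg adjustment. A two-sided exact permutation test gave 0.0286, the lowest p possible for 4 against 4 libraries. The authors' deposited table gave Olig1 a ratio of 0.438 and an FDR of 0.00125. Without wild-type library 3, the lowest wild-type library for this gene, the limma-trend adjusted p was 0.0436 (range over 19 alternatives 0.0436 to 0.487).

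Olig2 was lower throughout and had fewer reads. Its wild-type values were 254.4, 151.4, 220.0 and 228.3 normalized counts, and those of libraries 5 to 8 were 33.7, 103.7, 114.0 and 96.6. The library with the least, number 5, held an estimated 31.0 reads of Olig2. The 3 other heterozygote-labelled libraries lay within 96.6 to 114.0, all under the lowest wild-type value. The log2 fold change was -1.40 ± 0.36 (SE), with an adjusted limma-trend p of 0.214 (range over alternatives 0.0844 to 0.537), and the authors' deposited table gave an FDR of 0.0140. Library 5 weighed on the size for both genes. Without it the log2 fold change was -0.96 for Olig1 and -0.998 for Olig2, and without both libraries low in Xist it was -0.90 and -0.91, still with no overlap of the groups.

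The homeodomain pair showed the same order of groups. Nkx6-2, which marks maturing oligodendrocytes, had 361.9, 416.6, 248.4 and 366.1 normalized counts in wild type and 98.4, 154.2, 185.3 and 125.4 in libraries 5 to 8. The groups were separated by a gap from 185.3 to 248.4. Its log2 fold change was -1.31 ± 0.23 (SE), and with a limma-trend p of 0.000105 and an adjusted p of 0.0632 it ranked 24 among all genes tested. The authors' deposited table gave an FDR of 3.38e-05. Its limma-trend adjusted p was 0.0239 with sample quality weights and 0.0175 without wild-type library 3, the 2 of 19 alternatives in which it passed (range 0.0175 to 0.309). The 3' end of Nkx6-2 overlaps Inpp5a on the other strand, and Inpp5a, a phosphatase gene, had a log2 fold change of -0.06 ± 0.11 (SE).

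Nkx2-2, a factor that promotes the step from precursor to oligodendrocyte, was the least abundant of the 9. Its normalized counts were 99.9, 99.7, 86.1 and 62.5 in wild type, and libraries 5 to 8 had 36.9, 36.0, 56.5 and 37.0. Wild-type library 4 and heterozygote-labelled library 7 came close, at 62.5 and 56.5. The log2 fold change of Nkx2-2 was -1.05 ± 0.29 (SE), with an adjusted limma-trend p of 0.228 (range over alternatives 0.108 to 0.610). The authors' deposited table gave an FDR of 0.0426. Antisense genes overlap Nkx2-2, and it is not stated whether counting used the strand.

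Myrf had a smaller difference. Its wild-type values were 565.8, 865.8, 836.9 and 637.7 normalized counts, against 286.8, 565.5, 573.0 and 472.6 in libraries 5 to 8. Wild-type library 1 lay between libraries 6 and 7, and the other 3 wild-type libraries lay above the whole heterozygote-labelled range. The log2 fold change of Myrf was -0.64 ± 0.22 (SE), with a limma-trend p of 0.0132 and an adjusted p of 0.278 (range over alternatives 0.133 to 0.618). The exact permutation p was 0.0571, and the authors' deposited table gave an FDR of 0.135. Without wild-type library 1 the groups no longer overlapped and the log2 fold change was -0.75, while without library 5 it was -0.42.

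The SOX pair and the remaining factors did not reach an unadjusted limma-trend p under 0.05 in the reported fit. Their intervals bound the size of a difference. Sox10 had 3592.2, 3342.7, 3446.5 and 3241.9 normalized counts in wild type and 3559.5, 3252.6, 4073.0 and 4552.1 in libraries 5 to 8. Libraries 7 and 8 were the highest, and libraries 5 and 6 lay within the wild-type range. Its log2 fold change was 0.17 with a 95% interval of -0.07 to 0.41. The interval of Sox10 lay wholly above those of Olig1, Olig2, Nkx2-2, Nkx6-2 and Myrf, with the upper end for Myrf at -0.16.

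Sox8 had 752.7, 619.8, 680.1 and 456.6 normalized counts in wild type and 546.4, 934.0, 826.5 and 752.0 in libraries 5 to 8, a log2 fold change of 0.28 (95% interval -0.13 to 0.69). Libraries 5 and 8 lay inside the wild-type range. Without both libraries low in Xist, Sox8 was higher in each of the 3 remaining heterozygote-labelled libraries than in the 3 wild-type ones, with a log2 fold change of 0.53 (adjusted limma-trend p 0.234). An antisense gene overlaps Sox8. Other annotated genes overlap Olig1 (opposite strand), Tcf7l2 (same strand) and Zfp536 (both strands).

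Tcf7l2 varied most among wild-type libraries, with 353.0, 145.1, 193.5 and 220.6 normalized counts, of which library 1 was the highest. Libraries 5 to 8 had 227.0, 246.7, 166.8 and 191.0, all inside that range. The log2 fold change of Tcf7l2 was -0.07 (95% interval -0.63 to 0.48), turning to 0.16 when wild-type library 1 was left out. For Zfp536 the wild-type values were 635.9, 460.5, 500.5 and 438.5 normalized counts and the others 445.3, 525.4, 453.3 and 605.7. The groups of Zfp536 overlapped along nearly their whole range, with a log2 fold change of -0.0002 (95% interval -0.33 to 0.33).

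**Figure D2:**
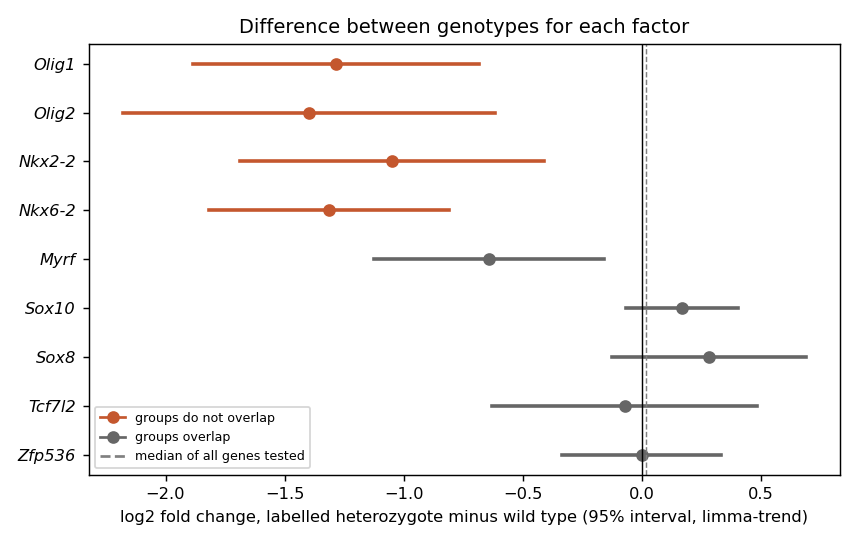
Log2 fold change of each factor (points) with its 95% interval (lines) from limma-trend, labelled heterozygote minus wild type, 4 libraries each. Orange marks the 4 factors whose groups do not overlap, and the dashed line is the median over all genes tested (0.02).

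Levels were compared between factors per kilobase of the longest annotated transcript. In wild type Sox10 was the highest, at 1225 ± 53.9 normalized counts per kb, followed by Olig1 at 579 ± 88.7 (SD, n = 4). Both steps, from Sox10 to Olig1 and from Olig1 to Sox8 at 209.1 ± 42.0, were free of overlap between libraries. Below them Nkx6-2 (183 ± 37.3), Myrf (128 ± 26.0), Zfp536 (110.1 ± 19.2), Olig2 (84.4 ± 17.4), Tcf7l2 (61.4 ± 23.9) and Nkx2-2 (41.1 ± 8.30) formed a series in which each neighbour overlapped the next. In the libraries labelled heterozygote Olig1 was at 254 ± 99.9 normalized counts per kb, beside Sox8 at 254.9 ± 54.5. Nkx6-2 was at 73.8 ± 19.6 per kb, below Zfp536 at 109.8 ± 16.2.

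A ratio within a library does not depend on the scaling of that library. Against Sox10, the log2 ratio of Olig1 was -1.46 ± 0.25 in wild type and -2.91 ± 0.71 in the heterozygote-labelled group (SD, n = 4 each), a difference of -1.45. The groups did not overlap for Olig1, Olig2, Nkx2-2 or Nkx6-2 relative to Sox10, with differences of -1.57 for Olig2, -1.22 for Nkx2-2 and -1.48 for Nkx6-2. Each had a two-sided exact permutation p of 0.0286, the smallest possible, among 8 ratios to Sox10. The share of all genes that separate the groups relative to Sox10 was not computed. Myrf relative to Sox10 differed by -0.81 (exact permutation p 0.0571). Sox8, Tcf7l2 and Zfp536 relative to Sox10 differed by 0.11, -0.24 and -0.17, with exact permutation p of 0.714, 0.514 and 0.286.

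The same factors were then set against Mog, which encodes a myelin protein of oligodendrocytes that Schwann cells lack. Mog was lower with a limma-trend adjusted p of 0.0354, a call that was lost when library 2, 4 or 8 was left out. Relative to Mog, Olig1 had a log2 ratio of -0.52 ± 0.06 in wild type and -0.40 ± 0.28 in the heterozygote-labelled group (SD, n = 4 each), and the groups overlapped. The log2 ratio of Nkx6-2 to Mog was -2.37 ± 0.17 and -2.28 ± 0.08, that of Olig2 was -3.08 ± 0.38 and -3.07 ± 0.43, and that of Nkx2-2 was -4.36 ± 0.39 and -4.00 ± 0.35. All of these overlapped, with differences of 0.01 to 0.36 and exact permutation p of 0.286 to 0.943, which does not show that the ratios are equal. Among the lower factors only Myrf was separated by group relative to Mog. Its log2 ratio to Mog was -1.86 to -0.73 in wild type and -0.69 to -0.40 in the heterozygote-labelled group, with no overlap. The difference was 0.76, with an exact permutation p of 0.0286. Mog itself had a log2 fold change of -1.41, among the lowest of 24 mature oligodendrocyte markers (median -0.87), against -0.64 for Myrf. Ratios to markers with a smaller difference were not computed. The ratios of Sox10, Sox8, Tcf7l2 and Zfp536 to Mog were also higher without overlap, by 1.33 to 1.69. Mog itself did not overlap between the groups, at 1393.3 to 2058.3 normalized counts in wild type and 443.2 to 923.5 in the heterozygote-labelled group. A gene that differs little is therefore likely to be separated relative to Mog. In all 9 ratios to Mog were computed, and these ratios were chosen after the values were seen. The share of all genes separated relative to Mog was not computed. The ratios to Sox10 and to Mog reuse the values given for each gene and are not separate evidence.

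**Figure D3:**
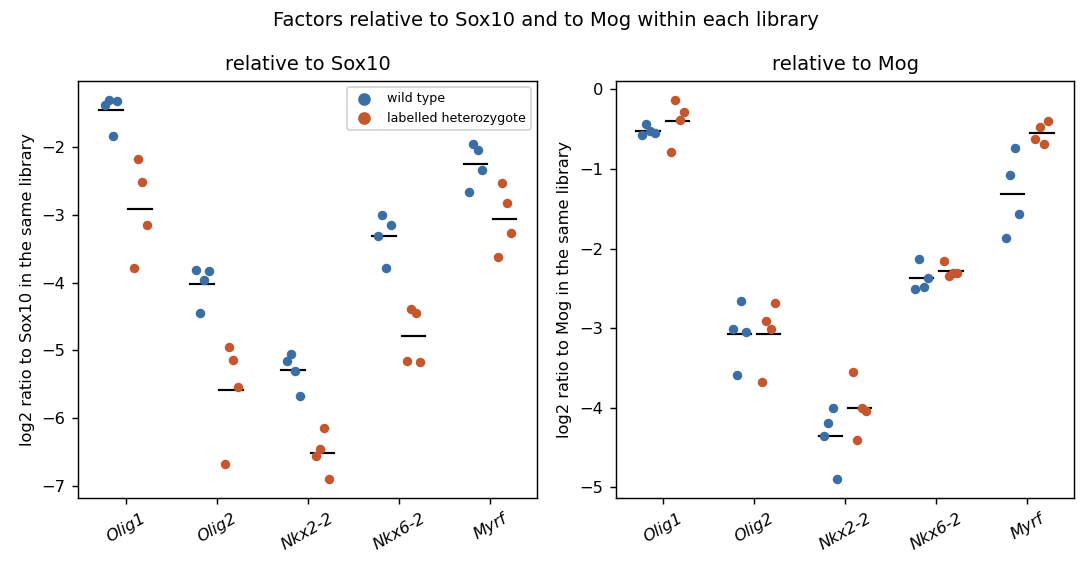
Log2 ratio of the 5 lower factors to Sox10 (left) and to Mog (right) in the same library, with a bar at each group mean, 4 libraries each. Olig1, Olig2, Nkx2-2 and Nkx6-2 are separated by group relative to Sox10 and overlap relative to Mog, and Myrf is separated only relative to Mog.

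Library by library, most of the lower factors shared the same lowest sample, but so did some of the others. Library 5 was the lowest heterozygote-labelled library in 4 of the 5 lower factors (Olig1, Olig2, Nkx6-2 and Myrf). For Nkx2-2 library 6 was the lowest, at 36.0 against 36.9 in library 5. Library 5 was also the lowest of its group for Sox8 (546.4) and Zfp536 (445.3), which were not lower. Alikeness between factors was measured as the mean absolute difference of their log2 values over the 8 libraries, each centred on its own mean. The measure includes the difference between the groups, so genes with a similar log2 fold change lie near each other. It is not separate from those fold changes. The closest of 36 pairs were Sox10 with Zfp536 (0.15) and Olig1 with Nkx6-2 (0.18), and Olig1 with Olig2 stood at rank 5 (0.25). Among genes outside the list, the profile nearest to Olig1 was that of Mobp (0.10), followed by Ermn (0.14) and Mog (0.15), against a median of 0.67 over all other genes. All 3 are genes of the oligodendrocyte myelin sheath, and Mobp had a limma-trend adjusted p of 0.0495, also lost when library 2, 4 or 8 was left out. Nearest to Myrf were Slain1 (0.11), which encodes a microtubule-associated protein, Gpr37 (0.12), a receptor of oligodendrocytes, and Slc1a2 (0.15), a glutamate transporter of astrocytes, against a median of 0.42. Nearest to Sox10 were 2810002D19Rik, Zfp36l1 and Nbas (0.05 to 0.06, median 0.24), and a profile with little spread has many near neighbours.

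**Figure D4:**
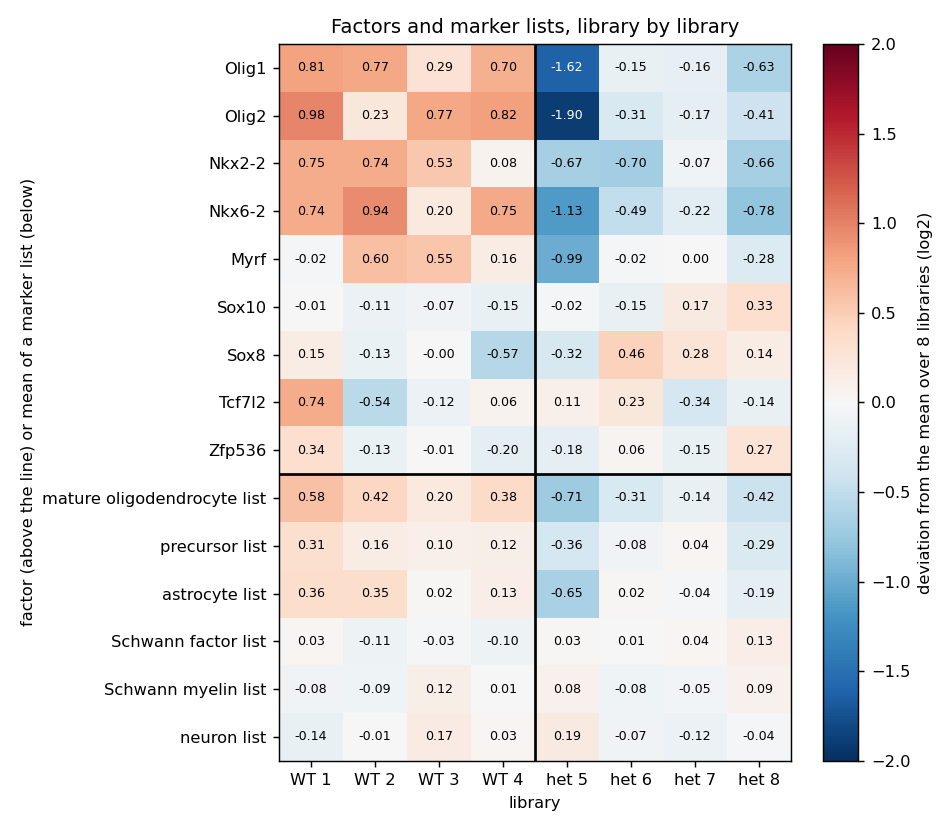
Deviation of each factor, and of the mean of each marker list, from its own mean over the 8 libraries, in log2 units (colour and number). In library 5 Olig1 and Olig2 are at -1.62 and -1.90, and the mature oligodendrocyte and astrocyte lists are at -0.71 and -0.65.

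Markers of mature oligodendrocytes were lower in the same libraries as Olig1, Olig2, Nkx2-2, Nkx6-2 and Myrf. For the counts in this and the following lists, 7.34% of all genes tested were lower and 6.72% higher at an unadjusted limma-trend p under 0.05. Of 24 genes of oligodendrocyte myelin and mature oligodendrocytes, 22 were lower, 21 at an unadjusted p under 0.05 and 6 with a limma-trend adjusted p under 0.05, with a median log2 fold change of -0.87 against 0.02 over all genes tested. Mobp, Mog and Klk6 had the lowest values (-1.47, -1.41 and -1.34) and passed. None of the 6 calls held in limma-trend when library 2, 4 or 8 was left out, each of which left 0 genes called among all tested (1919, 1451 and 1180 at an unadjusted p under 0.05). Trf, Opalin and Cldn11 had the highest (0.18, 0.08 and -0.26) and did not. Trf encodes transferrin, and Opalin was scarce, at 11.6 normalized counts on average in wild type. Summed over the list, wild-type libraries had 258132 to 331118 normalized counts and the libraries labelled heterozygote 154129 to 193955, and no marker was at 0 in any library. In bulk RNA, fewer cells of a type and less RNA per cell cannot be told apart.

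Astrocyte markers were lower as well. Of 12, 10 were lower, 6 of them at an unadjusted p under 0.05 and 0 with a limma-trend adjusted p under 0.05, and the median log2 fold change was -0.45. Gfap, the intermediate filament of astrocytes, had -0.99, Ntsr2 -0.89 and Aqp4 -0.73, while Gjb6, Slc1a3 and Slc4a4 had 0.13, 0.08 and -0.10. The summed level of the astrocyte list was 32584 to 45462 normalized counts in wild type and 22214 to 34802 in the heterozygote-labelled group, with no marker at 0. The astrocyte median was -0.25 without both libraries low in Xist and -0.30 without library 5. Schwann cell myelin markers had a median of -0.04 (-0.07 to 0.03 over the alternatives), with 9 of 16 lower, 1 at an unadjusted p under 0.05 in each direction and 0 with a limma-trend adjusted p under 0.05. Mal, Prx and Cadm4 had the lowest log2 fold changes of the Schwann list (-0.34, -0.16 and -0.16) and L1cam, Pmp2 and Gldn the highest (0.43, 0.40 and 0.32). The part of oligodendrocyte or astrocyte content in the lower levels of Olig1, Olig2, Nkx2-2, Nkx6-2 and Myrf was not tested.

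Precursor markers gave a mixed picture. Of 12, 8 were lower and 4 higher, 5 and 1 of them at an unadjusted p under 0.05 and 0 with a limma-trend adjusted p under 0.05, and the median log2 fold change was -0.17. Neu4, Gpr17 and Bcas1, which mark committed and newly formed oligodendrocytes, had the lowest values (-1.74, -1.31 and -0.68). The authors' deposited table gave Gpr17 an FDR of 0.000213, Bcas1 of 0.000122, Bcan of 0.0027 and Neu4 of 0.0438. Its FDR was under 0.05 for 4 of 12 precursor, 18 of 24 mature oligodendrocyte and 3 of 12 astrocyte markers, all lower. Of the Schwann cell myelin markers it was 1 of 16, also lower. Over all its genes with a p-value, 0.938% were lower at that FDR and 0.672% higher. Cspg4, Tnr and Lhfpl3 had the highest, at 0.36, 0.35 and 0.32. Pdgfra, the receptor of early precursors that fibroblasts also express, had a log2 fold change of -0.06 ± 0.12 (SE). The median of the precursor list was 0.05 without both libraries low in Xist, and ran from -0.31 to -0.02 when 1 library was left out.

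Other regulators of the lineage were counted next. Of 37 further transcription and chromatin regulators tested, 15 were lower and 22 higher. At an unadjusted limma-trend p under 0.05 were 3 of the lower and 4 of the higher, beside 7.34% and 6.72% of all genes tested. 0 had a limma-trend adjusted p under 0.05, and the median was 0.09. St18, a zinc finger factor related to Myt1, had the lowest log2 fold change of the regulators, at -1.20 ± 0.38 (SE). Its wild-type values were 51.9, 97.8, 51.3 and 41.1 normalized counts and those of libraries 5 to 8 were 22.8, 18.3, 23.6 and 35.6, so the groups did not overlap. Hes5 and Creb5 followed at -0.43 and -0.35. Nkx6-1, the homeodomain relative of Nkx6-2, had the highest value at 0.67 ± 0.35 (SE), above Prrx1 at 0.51 and Ep400 at 0.38. With a correction for transcript length the median of the regulators was -0.08, and it was 0.03 without library 6 and 0.05 without library 4.

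Wnt pathway partners and targets of Tcf7l2 and transcription factors of Schwann cells were counted in the same way. Of 16 Wnt pathway genes, 3 were lower and 13 higher, with 1 in each direction at an unadjusted p under 0.05, 0 with a limma-trend adjusted p under 0.05 and a median of 0.12 (0.21 without library 6). Notum, a secreted Wnt inhibitor, had the lowest log2 fold change (-0.85), followed by Nkd1 (-0.16) and Nkd2 (-0.13). Gsk3b, Tcf7 and Lgr5 had the highest (0.44, 0.40 and 0.31). The Lgr5 value rested on wild-type library 1, at 99.9 normalized counts against 369.6 to 395.1 in the other wild-type libraries. Libraries 5 to 8 had 328 to 362.9 of Lgr5, all below those other wild-type libraries. Of 15 transcription factors of Schwann cells, 4 were lower and 11 higher, with 2 higher at an unadjusted p under 0.05, 0 with a limma-trend adjusted p under 0.05 and a median of 0.13. That median was 0.06 with the transcript length correction and 0.09 without library 8. Pax3, Egr2 and Foxd3 had the lowest values (-0.29, -0.15 and -0.03) and Nab2, Egr3 and Tead1 the highest (0.39, 0.29 and 0.24). Egr2 drives peripheral myelin genes together with Sox10. Of the neuron markers 8 of 14 were lower, with a median of -0.02 (-0.08 to 0.05 over the alternatives) and 0 of 14 at an unadjusted or adjusted limma-trend p under 0.05. Gata3, Calb2 and Uchl1 had the lowest values (-0.34, -0.31 and -0.29) and Map2, Nefh and Slc17a7 the highest (0.28, 0.21 and 0.19). The log2 fold changes of the MEF2 family were 0.22 for Mef2a, 0.16 for Mef2d and 0.53 for Mef2c.

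**Figure D5:**
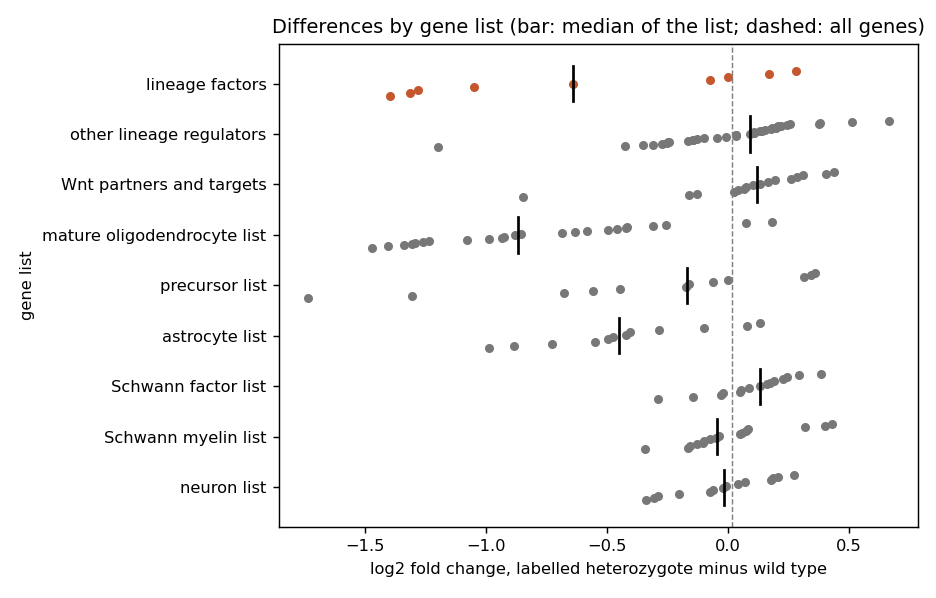
Log2 fold change of each tested gene (points) by list, labelled heterozygote minus wild type, with the list's median (bar) and the median of all genes (dashed). The lineage factors fall into 5 below -0.6 and 4 near or above 0, and the mature oligodendrocyte list has a median of -0.87.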

How the data were processed

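RNA was sequenced from 8 auditory nerve samples, 1 mouse each. The authors deposited 1 table whose signal columns hold read counts divided by a scaling factor per library, as judged from the values. Partek, STAR, DESeq2 and mm10 are named in the submitters' processing notes, with no role given, and it is not stated whether counting used the strand. Further deposited columns hold the authors' p-value with its FDR, the ratio of the groups, and that ratio on the log2 scale. A score column, the signed form of the ratio, was deposited as well and was not used here.

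The step of which most values are whole multiples gave the depth. 88.2% to 91.7% of values under 300 were whole within 0.06 normalized counts, too few to recover reads, so no count model was used. A count of 3 reads equals 2.37 to 3.89 normalized counts. No molecular identifiers are named.

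Genes reaching 10 normalized counts in 4 or more libraries were tested with limma-trend on log2(value + 1), without covariates and with Benjamini-Hochberg adjustment over 14870 genes. A fold change on that scale understates the change of low genes. The fit was checked on simulated data. Single values used a two-sided exact permutation test. Transcript lengths came from GENCODE M21. Software was limma 3.58.1 under R 4.3.3, and scipy 1.17.1 and matplotlib 3.10.9 under Python 3.11.15. Every member was named, as were the 3 lowest and 3 highest genes of each further list and the 3 genes nearest to Olig1, Sox10 and Myrf. St18, Pdgfra and Mog were given more values after these had been seen. The members and lists were chosen with earlier results of these data known. The alternatives were other pseudocounts (0.1 and 10), filters, scalings, weights and libraries left out.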

Additional observations from a re-analysis of the deposited data

Results flagged for a closer look

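1 of 18 groups of 4 libraries had a library far from the other 3, and chance gives about 1 in 20. It was Nkx2-2 in the heterozygote-labelled group, where library 7 had 56.5 normalized counts against 36.0 to 37.0, a gap of 0.951 of the whole range. Without library 7 the log2 fold change of Nkx2-2 was -1.20.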

How the results depend on the processing

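No paired analysis was possible because the groups share no replicate numbers. In all 19 alternatives Olig1, Olig2, Nkx2-2, Nkx6-2 and Myrf stayed lower with an unadjusted limma p under 0.05, and Sox10 and Sox8 stayed higher. The unadjusted limma p was under 0.05 in 3 of the 19 for Sox8 (lowest 0.00724) and in 1 for Sox10 (0.0414). The number of factors with an adjusted p under 0.05 was 0 in the reported fit and in all but these alternatives. It was 1 with sample quality weights (Nkx6-2), and it ran from 0 to 2 when 1 library was left out, with 2 (Olig1 and Nkx6-2) without wild-type library 3. Over all genes the number was 12, against 96 with sample quality weights, 7 with quantile normalization, 24 with the transcript length correction, and 0 to 221 when 1 library was left out. Leaving out library 3 gave 221. Leaving out library 2, 4 or 8 gave 0, while 1919, 1451 and 1180 genes had an unadjusted limma p under 0.05. Leaving out library 5 or 7 gave 7 or 6. The log2 fold change of Tcf7l2 turned positive with sample quality weights (0.12) and without both libraries low in Xist (0.11), and ran from -0.26 to 0.16 when 1 library was left out. That of Zfp536 turned positive under sample quality weights (0.085), limma-voom of the estimated reads (0.019), quantile normalization (0.0018) and without both libraries low in Xist (0.17), and ran from -0.089 to 0.11 when 1 library was left out. Neither passed 0.05 in any alternative. The cause of these shifts was not tested. Depth limits Olig2 and Nkx2-2 most, with as few as 31.0 and 34.0 estimated reads in a library.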
